A study of Mus musculus with 26 samples.

Results

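The 8 genes described here, of 36589 counted in neurons of the mouse thalamus, belong to the extracellular matrix: Bcan, Ncan, Hapln1, Hapln4, Col25a1, Col12a1, Fbln1 and Spon1. The genes were named because their levels differ across the projection systems and clusters of this dataset, so those levels are given as a description, without a test. The cells were thalamic neurons that carried a retrograde label, an agent taken up at axon endings and carried back to the cell body, and they fall into 5 groups by the cortical system they project to: auditory, motor, prefrontal, somatosensory and visual. They were picked by hand under fluorescence from slices kept with pronases and blockers of neural activity, a treatment that all 5 groups share, and each cell was sequenced from the 3′ end of its transcripts with a molecular tag on each transcript captured (a UMI), so that a UMI counts 1 transcript and not its copies. Strain, sex, age and the label injected are not given in the sources used here. The 1972 cells came from 26 plates, 3 sequencing batches and 20 animal identifiers (1 of them in both the auditory and the visual system), and counts were summed per animal and system into 21 sums, which are the replicates: 5 auditory (380 cells), 5 motor (484), 4 prefrontal (388), 3 somatosensory (285) and 4 visual (435).

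A sum held 4317156 to 20322775 UMIs, and a cell 20509 to 683775 (median 87292). The 3 somatosensory sums all came from batch 2 and the 4 visual sums all from batch 3, so neither system can be compared between batches. Each of the other 3 systems had sums in every batch. A difference given within a batch is therefore another contrast than that from the other 4 systems: it is taken from the mean of the other systems present there. In batch 1 these are drawn from auditory, motor and prefrontal neurons, in batch 2 from the same with somatosensory neurons added and in batch 3 with visual neurons added. Of 375 cell barcodes, 372 occurred in more than 1 plate, as plates reuse barcodes, and cells were told apart by plate and barcode. At least 3 of 8 markers of thalamic neurons were detected in 1972 of 1972 cells. Markers of another cell type, at least 3 of 1 type, were detected in 124 cells, 69 of them with oligodendrocyte, 36 with astrocyte, 18 with oligodendrocyte precursor, 18 with microglia, 2 with fibroblast or mural cell and 1 with endothelial markers, where a cell can count under more than 1 type. Levels are in CPM, the UMIs of a gene divided by all UMIs of the sum and scaled to the same total in every sum. In summed counts, fewer cells that use a gene and less of its RNA per cell cannot be told apart, and shares of cells with a UMI are therefore given beside the levels where they differ.

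A perineuronal net is a mesh of extracellular matrix around the cell body and proximal dendrites of some neurons. Its backbone is the sugar chain hyaluronan. Lecticans, proteoglycans that carry chondroitin sulfate chains, bind to hyaluronan, and link proteins hold the pair together. Bcan encodes the lectican brevican and Ncan the lectican neurocan; Hapln1 and Hapln4 encode link proteins. Both lecticans are also made by glial cells. Col25a1 encodes a collagen that spans the membrane of neurons and is partly shed, Col12a1 a collagen that attaches to the surface of collagen fibrils, Fbln1 the fibulin-1 glycoprotein of basement membranes and elastic fibres, and Spon1 F-spondin, a secreted protein known for its effects on growing axons.

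Coordinates are those of build mm10 (GRCm38), the build named in the submitters' processing notes, in the GENCODE vM21 annotation. Bcan lies on chromosome 3 (87987531 to 88000230, minus strand), as does Col25a1 (130131501 to 130599877, plus strand). Ncan (70093085 to 70120873, minus strand) and Hapln4 (70083457 to 70090862, plus strand) lie on chromosome 8 with 2222 bases and 0 other coding genes between their ends. Bcan likewise lies 21519 bases from Hapln2, and Hapln1 43659 bases from the lectican gene Vcan, each with 0 coding genes between. Hapln1 lies on chromosome 13 (89539796 to 89611652, plus strand), Col12a1 on chromosome 9 (79598991 to 79718831, minus strand), Fbln1 on chromosome 15 (85205949 to 85286535, plus strand) and Spon1 on chromosome 7 (113765998 to 114043370, plus strand).

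The promoter windows of 4 of the genes are shown because the sections below turn on where these genes are used: the lecticans Bcan and Ncan, high in motor and somatosensory neurons, and Col25a1 and Fbln1, high in prefrontal neurons. Each window runs from 250 bases before to 50 after a start in RefSeq (GRCm38.p6), 5′ to 3′ on the gene's strand; 5 of the 8 genes had an entry, and of the 2 overlapping windows listed for Fbln1 the second is shown; the first held 0 matches to the first motif below and 1 to the fourth, with a GC content of 51.7%. Capitals mark matches, on either strand, to 5 motifs; no matches overlapped. The first is GGGCGG, known from Sp factors. The second is TATAAA, known from core promoters. The third is CCAAT, known from the factor NF-Y. The fourth is CACGTG, an E-box. The fifth is AGGTCA, known from nuclear receptors. The windows are chr3:88000307-88000606 for Bcan, chr8:70120795-70121094 for Ncan, chr3:130180595-130180894 for Col25a1 and chr15:85205758-85206057 for Fbln1.
Bcan: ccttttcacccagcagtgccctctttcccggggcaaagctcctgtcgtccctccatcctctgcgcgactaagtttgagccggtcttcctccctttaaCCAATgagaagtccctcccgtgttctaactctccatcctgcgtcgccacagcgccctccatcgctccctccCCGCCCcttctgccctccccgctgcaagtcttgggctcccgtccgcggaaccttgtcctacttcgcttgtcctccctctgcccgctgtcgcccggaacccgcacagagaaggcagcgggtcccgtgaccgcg
Ncan: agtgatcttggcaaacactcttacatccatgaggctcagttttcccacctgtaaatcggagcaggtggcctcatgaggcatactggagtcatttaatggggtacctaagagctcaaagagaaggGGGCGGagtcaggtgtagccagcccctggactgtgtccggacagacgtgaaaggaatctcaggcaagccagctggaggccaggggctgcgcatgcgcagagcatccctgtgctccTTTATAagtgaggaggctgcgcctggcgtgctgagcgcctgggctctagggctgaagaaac
Col25a1: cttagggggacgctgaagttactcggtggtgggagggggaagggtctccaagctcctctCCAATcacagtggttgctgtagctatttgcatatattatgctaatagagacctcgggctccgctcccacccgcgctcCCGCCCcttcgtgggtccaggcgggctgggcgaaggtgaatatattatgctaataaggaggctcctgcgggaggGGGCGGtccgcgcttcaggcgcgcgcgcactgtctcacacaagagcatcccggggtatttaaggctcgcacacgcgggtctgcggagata
Fbln1: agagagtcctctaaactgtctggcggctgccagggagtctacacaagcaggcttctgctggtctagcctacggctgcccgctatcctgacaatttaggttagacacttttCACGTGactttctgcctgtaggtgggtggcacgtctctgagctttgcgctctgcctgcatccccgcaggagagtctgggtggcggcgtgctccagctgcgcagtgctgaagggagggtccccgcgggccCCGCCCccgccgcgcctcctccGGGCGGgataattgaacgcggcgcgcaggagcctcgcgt

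The Bcan window held 1 match to the first motif and 1 to the third, and that of Ncan 1 to the first and 1 to the second. The Col25a1 window held 2 matches to the first motif and 1 to the third, and that of Fbln1 2 to the first and 1 to the fourth. Among 32851 promoter windows of the same length, 35.7% held the first motif, 13.6% the second, 37.4% the third, 7.15% the fourth and 16.3% the fifth. The window of Hapln1 held none of these letters. The Col25a1 window lies inside the gene's GENCODE span and not at its outer end, and counts from the 3′ end of transcripts cannot tell which start was used. GC content was 64% in the Bcan and Fbln1 windows, 60% in that of Col25a1 and 56.7% in that of Ncan, with a median of 52.7% over all windows. A match is a description of the letters and says nothing of binding.

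Bcan was high in motor, somatosensory and visual neurons and low in auditory and prefrontal ones. The 5 motor sums held 40.3, 36.4, 16.1, 28.5 and 22.5 CPM, the 3 somatosensory sums 11.7, 28.8 and 41.8, and the 4 visual sums 29.0, 15.7, 5.83 and 20.5. The 4 prefrontal sums held 5.76, 2.27, 15.6 and 5.77 CPM and the 5 auditory sums 0.229, 0.312, 1.94, 6.58 and 0.695. Every motor sum stood above every auditory and prefrontal sum, whereas motor, somatosensory and visual sums overlapped. The means were 28.8 ± 9.86 in motor, 27.4 ± 15.1 in somatosensory, 17.8 ± 9.66 in visual, 7.35 ± 5.74 in prefrontal and 1.95 ± 2.68 CPM in auditory neurons (SD over sums). The log2 difference from the mean of the other 4 systems was 2.42 ± 0.47 in motor and -3.91 ± 0.60 in auditory neurons (± SE, from an edgeR fit with the batch as a covariate). Here and below, edgeR does not give the SE of a log2 difference itself. It was taken as the size of the difference over the square root of the fit's F statistic. Without motor replicate 5 the motor difference was 3.07, without auditory replicate 4 the auditory one was -4.72, and within batches 1, 2 and 3 the motor difference from the other systems of the batch was 5.22, 0.91 and 2.44. A Bcan UMI was found in 31.4% of motor cells (median 105767 UMIs per cell) and in 4.74% of auditory cells (median 79507). After thinning of every cell to 20000 UMIs the shares were 20.9% and 2.63%.

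Ncan followed a flatter order. The 3 somatosensory sums held 52.0, 74.3 and 57.7 CPM and the 5 motor sums 47.4, 49.2, 69.4, 54.3 and 55.7. The 4 visual sums held 36.8, 41.0, 40.4 and 39.3 CPM, the 5 auditory sums 53.7, 39.6, 38.4, 40.8 and 19.9, and the 4 prefrontal sums 25.8, 19.7, 36.7 and 18.3. Somatosensory and motor sums overlapped each other and stood above every visual and prefrontal sum, but auditory replicate 1 reached into their range. Prefrontal neurons stood lower than the mean of the other 4 systems, with a log2 difference of -0.97 ± 0.21, and motor neurons higher, with 0.57 ± 0.17. Against the other systems of the same batch the prefrontal difference was -1.08, -0.51 and -1.01 in batches 1, 2 and 3, and the motor one 0.61, 0.34 and 1.37.

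Hapln4 divided the systems into a high and a low set. The 3 somatosensory sums held 139.6, 238 and 189 CPM and the 5 motor sums 145, 169, 166, 228 and 168. The 4 visual sums held 129, 118, 103 and 72.8 CPM, the 5 auditory sums 75.5, 77.9, 87.7, 129 and 69.3, and the 4 prefrontal sums 47.0, 55.3, 104 and 97.8. Every somatosensory and motor sum stood above every sum of the other 3 systems, which overlapped among themselves. The log2 difference from the mean of the other 4 systems was 0.83 ± 0.16 in motor, 0.68 ± 0.24 in somatosensory, -0.53 ± 0.17 in auditory and -0.74 ± 0.18 in prefrontal neurons. Against the other systems of batches 1, 2 and 3 the motor difference was 1.37, 0.41 and 1.164 and the prefrontal one -1.11, -0.57 and -0.23. A Hapln4 UMI was found in 86.3% of somatosensory and 78.7% of motor cells, and in 54.7% of auditory and 57.7% of prefrontal cells.

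Hapln1, the other link protein of the set, was barely detected. All 1972 cells together held 21 UMIs of it in 10 cells, 7 of these in 1 cell of auditory cluster Aud_1, and 7 of the 10 cells held 1 UMI. Over all cells this is 0.0953 CPM. No system stood apart at this depth: its pooled level ran between 0.0284 CPM in somatosensory and 0.191 CPM in auditory neurons, against 0.0432 to 0.0927 CPM for 3 UMIs in a system.

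**Figure D1:**
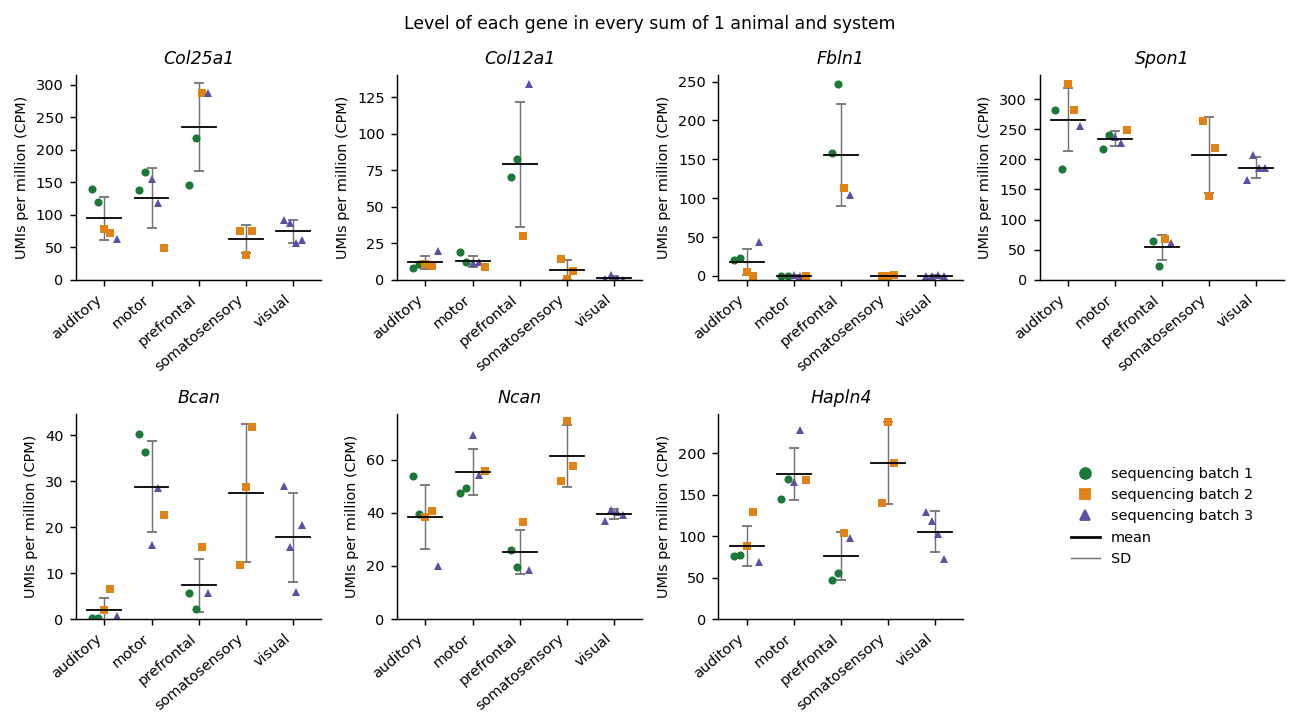
Level of 7 of the genes in CPM (vertical axes from 0) in each of the 21 sums of 1 animal and system, by system; symbols and colours give the sequencing batch, the long bar the mean and the thin bars the SD. Prefrontal sums lie apart at the top for Col12a1 and Fbln1 and at the bottom for Spon1, and somatosensory and motor sums lie above all others for Hapln4.

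Among the collagens, Col25a1 was widely used and Col12a1 was concentrated in few cells. Col25a1 gave 28816 UMIs in 54.9% of cells. Its 4 prefrontal sums held 146, 219, 288 and 287 CPM, and the 5 motor sums 138, 166, 155, 118 and 49.4. The 5 auditory sums held 140, 119, 77.5, 72.4 and 63.0 CPM, the 4 visual sums 92.7, 87.5, 57.1 and 60.7, and the 3 somatosensory sums 74.5, 38.3 and 75.2. Prefrontal sums were highest on average, but prefrontal replicate 1 lay inside the motor range, and each neighbouring pair in the order prefrontal, motor, auditory, visual, somatosensory overlapped. The prefrontal log2 difference was 1.40 ± 0.23, and from the other systems present in batches 1, 2 and 3 it was 0.37 ± 0.22, 2.21 ± 0.28 and 1.71 ± 0.25.

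Col12a1 stood apart in prefrontal neurons, whose 4 sums held 70.6, 82.5, 29.7 and 134 CPM. The 5 motor sums held 18.7, 12.2, 11.8, 12.5 and 8.41 CPM, the 5 auditory sums 8.36, 10.9, 10.7, 9.44 and 19.9, the 3 somatosensory sums 14.1, 0.380 and 5.86, and the 4 visual sums 0.610, 3.11, 0.833 and 0.120. No prefrontal sum overlapped any other system, and the visual sums were the lowest group, below all motor and auditory sums. Log2 differences from the mean of the other 4 systems were 3.59 ± 0.44 in prefrontal and -4.51 ± 0.76 in visual neurons (-5.61 without visual replicate 2). From the other systems present, the prefrontal difference was 2.64 in batch 1, 1.82 in batch 2 and 4.36 in batch 3, the batch that holds the low visual sums. Only 13.2% of all cells had a UMI of Col12a1, and the 197 cells with the most UMIs held 97.8% of its 4569 UMIs. In visual neurons 8 of 435 cells had any.

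Fbln1 was used by prefrontal and some auditory neurons and lay near 0 elsewhere. Its 4 prefrontal sums held 158, 247, 112.5 and 104 CPM and the 5 auditory sums 20.3, 22.7, 4.70, 0.219 and 43.1. The 5 motor sums held 0.287, 0.249, 1.09, 0 and 0.251 CPM, the 3 somatosensory sums 0, 0 and 0.827, and the 4 visual sums 0.153, 0.164, 0.833 and 0.120. Prefrontal sums stood apart above all others. Auditory replicates 1, 2, 3 and 5 lay above every motor, somatosensory and visual sum, and auditory replicate 4 lay within their range. All 12 somatosensory UMIs came from 1 cell, the visual neurons held 8 UMIs in 5 cells and the motor neurons 22 UMIs in 13 cells. The fitted log2 difference of prefrontal neurons from the mean of the other 4 systems was 7.54 ± 0.50 and that of auditory neurons 3.21 ± 0.52. The other 3 systems lie near the floor of detection, and these values moved with single sums: without somatosensory replicate 3 they were 8.75 and 4.41, and without auditory replicate 5 the auditory value was 2.47. Without prefrontal replicate 3 the prefrontal value was 6.71. From the other systems present in batches 1, 2 and 3 the prefrontal difference was 6.36, 7.51 and 5.80 and the auditory one 1.49, 0.21 and 4.10; without batch 3 the auditory one was 1.71. A Fbln1 UMI was found in 55.7% of prefrontal cells, 6.32% of auditory cells, 2.69% of motor, 0.351% of somatosensory and 1.15% of visual cells.

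Spon1 ran the other way. The 4 prefrontal sums held 64.8, 22.4, 67.7 and 60.4 CPM. The 5 auditory sums held 282, 184, 326, 282 and 256 CPM, the 5 motor sums 217, 241, 237, 228 and 249, the 3 somatosensory sums 263, 139.6 and 219, and the 4 visual sums 166, 208, 185 and 186. Every prefrontal sum lay below every other sum. The ranges of the other 4 systems overlapped, save that every motor sum lay above every visual sum. The prefrontal log2 difference was -2.0045 ± 0.21, and those of auditory and motor neurons were 0.81 ± 0.16 and 0.71 ± 0.17. Set against the other systems of the same batch, the prefrontal difference was -2.44, -1.91 and -1.90 in batches 1, 2 and 3. A UMI of Spon1 was found in 52.1% of prefrontal cells, against 77.5% to 88.6% of the cells of the other systems.

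Of the 8 genes, 7 passed the filter on low counts in the fit of systems (Hapln1 did not). In 3 of them (Col12a1, Fbln1 and Spon1) no prefrontal sum overlapped another system, beside 9.17% of all tested genes called in the prefrontal contrast. That share rests on an adjusted p under 0.05 and not on overlap, so it is another measure than the count. The share of all genes without such overlap was not computed. Since the genes were chosen on their levels across systems, nothing is read from the number of genes that stand apart.

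The authors' cell table divides each system into 3 or 4 clusters, written Aud_1 to Vis_3, and the genes were unevenly placed among them. Bcan was highest in the cluster numbered 1 of the motor, somatosensory, prefrontal and visual systems. Over the animals with at least 10 cells it averaged 65.9 ± 21.9 CPM in Mot_1 (n = 5), 56.5 ± 4.89 in Som_1 (n = 2) and 36.01 ± 29.2 in Vis_1 (n = 3), and 1 sum of Pfr_1 held 44.4. Som_1 held 86.3% of the somatosensory Bcan UMIs in 31.9% of the cells, and Pfr_1 66.3% of the prefrontal UMIs in 11.3% of the cells. All 3 auditory clusters averaged under 4 CPM, Aud_1 with 3.21 ± 3.19 included. Hapln4 was highest in the cluster numbered 1 of all 5 systems. It averaged 292 ± 41.9 CPM in Mot_1, 237 ± 8.92 in Som_1, 174 ± 34.7 in Vis_1 and 149 ± 40.7 in Aud_1, and 1 Pfr_1 sum held 219. The lowest clusters were Pfr_3 (37.2 ± 8.29), Vis_3 (38.7 ± 3.25) and Mot_4 (39.9 ± 20.9).

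Ncan was placed elsewhere. Its highest clusters were Som_2 with 98.1 ± 19.1 CPM (n = 3) and Mot_2 with 91.8 ± 46.1 (n = 4), while Som_1 had 44.2 ± 0.780 and Mot_1 31.8 ± 5.80. The 3 Som_2 sums lay above both Som_1 sums, while the Mot_2 sums ran between 34.3 and 137 CPM and overlapped those of Mot_1. Across the 17 clusters the Pearson correlation of log2(CPM + 1), which describes these cells only since clusters share animals and libraries, was 0.74 between Bcan and Hapln4 and 0.05 between Bcan and Ncan.

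**Figure D2:**
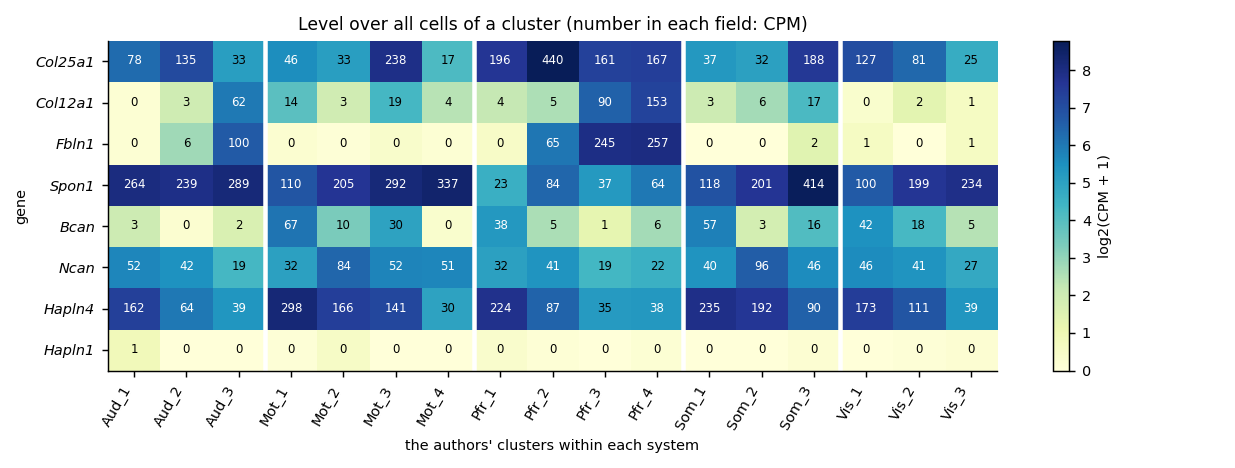
Level over all cells of each of the authors' 17 clusters (columns, grouped by system) for the 8 genes (rows), as CPM written in each field and as colour on a log2(CPM + 1) scale; these are pooled values, not means over animals. Bcan and Hapln4 are darkest in the clusters numbered 1, Ncan in Mot_2 and Som_2, Col12a1 and Fbln1 in Pfr_3, Pfr_4 and Aud_3, and Hapln1 is pale throughout.

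The highest cluster of Col25a1 differed in number between systems. Pfr_2 averaged 426 ± 10.9 CPM (n = 2), Mot_3 309 ± 139 (n = 5), Som_3 180 ± 21.3 (n = 2), Vis_1 137 ± 24.3 (n = 3) and Aud_2 129 ± 23.3 (n = 5). Mot_3 held 84.2% of the motor UMIs in 33.3% of the cells. The other 3 prefrontal clusters had means of 153 to 176. Mot_4 had the lowest mean of the 17 clusters, 17.7 ± 5.54 CPM (n = 3). The 3 Mot_4 sums, at 12.03 to 23.1 CPM, lay far below the 5 Mot_3 sums at 198 to 536.

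Col12a1 and Fbln1 met in Pfr_3, Pfr_4 and Aud_3. Col12a1 averaged 169 ± 74.3 CPM in Pfr_4 (n = 2), 87.4 ± 13.4 in Pfr_3 (n = 2) and 51.02 ± 6.86 in Aud_3 (n = 3), and Aud_3 held 84.1% of the auditory UMIs in 16.8% of the cells. Outside these clusters Mot_3 had 29.8 ± 19.05 CPM and Som_3 18.7 ± 6.78. Fbln1 averaged 236 ± 92.0 CPM in Pfr_4, 227 ± 80.3 in Pfr_3, 47.9 ± 39.6 in Pfr_2 and 41.1 ± 59.3 in Aud_3, where the 3 sums ran from 1.38 to 109 CPM. Pfr_1 held 3 UMIs of Fbln1 in 44 cells. Pfr_3 had sums from prefrontal replicates 1 and 2 only, both of batch 1, so its levels rest on that batch. Spon1 was low in every prefrontal cluster, from 20.03 CPM in the 1 sum of Pfr_1 to 94.9 ± 13.7 in Pfr_2, and high in Som_3 (429 ± 30.9), Mot_3 (387 ± 145) and Aud_3 (305 ± 43.3).

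In single cells, thinned to 20000 UMIs each, the overlap of Col12a1 and Fbln1 was read within clusters. A Col12a1 UMI was found in 43.4% of the 76 Pfr_3 cells with Fbln1 (95% interval 32.1 to 55.3) and in 18.9% of the 37 without (7.96 to 35.2). In Pfr_4 the shares were 52.7% of 74 cells and 52.2% of 23. For Hapln4, 93.6% of the 47 Mot_1 cells with a Bcan UMI had it (82.5 to 98.7), and 72.0% of the 50 without (57.5 to 83.8), whereas in Som_1 the shares were 85.4% of 48 cells and 90.5% of 42. Intervals are exact binomial ones and cover counting error only, and cells of 1 animal are not replicates, so no test was made.

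The authors' 9 clusters over all systems (n = 2 to 7 sums each) were read in the same way. Joint cluster 1, of 174 cells, had 55.5 ± 10.0 CPM of Bcan and 274 ± 61.6 of Hapln4, the highest mean of each. Joint cluster 2 had the highest Ncan mean, 99.4 ± 20.9 CPM. Joint cluster 9 had 250 ± 89.6 CPM of Fbln1 and 96.6 ± 10.9 of Col12a1 (n = 2), joint cluster 7 301 ± 39.1 of Col25a1 (n = 3), and joint cluster 4 400 ± 143 of Spon1 (n = 7). All 99 cells of joint cluster 9 were prefrontal, so its levels describe prefrontal neurons again. So were 212 of the 259 cells of joint cluster 7, where Col25a1 was at 335 CPM over these, 286 over 26 motor and 7.70 over 16 visual cells. Joint cluster 1 held 0 UMIs of Fbln1, which allows up to 2.10% of its cells to hold one (upper end of the exact 95% interval).

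A grouping that the choice of genes did not use is the anchor class of a cell, set by which of Calb2, Necab1 and Tnnt1 had the most UMIs in it. These 3 genes are known markers of different profiles of thalamic neurons. The classes held 611 Calb2, 532 Necab1 and 756 Tnnt1 cells (73 cells without a single highest count had no class), summed into 18, 20 and 20 sums of at least 5 cells per animal and system. All 3 classes had a sum in 17 animals (1 animal of 2 systems counted in each); no somatosensory animal had a Calb2 sum. The classes overlap the clusters (96.8% of Aud_3 cells were of the Calb2 class, 94.4% of Som_1 cells of the Tnnt1 class and 73.9% of Pfr_2 cells of the Necab1 class), so the p-values below are not independent of the choice of genes. The filter on low counts passed 6 of the 8 genes, without Fbln1 and Hapln1. Each result was refitted under 35 alternatives, and the adjusted p is given with its range over them.

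Hapln4 and Bcan were lower, and Col12a1 and Spon1 higher, in the Calb2 class than in the Tnnt1 class. Of the 6 genes tested, 4 changed at an adjusted p under 0.05, where 12% of all 12134 tested genes did (6.21% higher, 5.74% lower). The genes were chosen on clusters that these classes overlap, so nothing is read from that count. Hapln4 ran from 7.95 to 169 CPM (median 61.4) in the Calb2 sums and from 113 to 258 (median 189) in the Tnnt1 sums. The ranges overlap, but within animals the Calb2 class was lower in 17 of 17. The log2 difference was -1.44 ± 0.23 (adjusted p = 1.05e-05, edgeR's quasi-likelihood test with Benjamini-Hochberg adjustment over all genes, range 6.09e-16 to 0.307), and within batches 1, 2 and 3 it was -1.38, -2.28 and -1.13, with adjusted p = 0.307, 0.0192 and 0.0131.

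Bcan ran from 0 to 46.3 CPM (median 2.77) in the Calb2 sums and from 0 to 47.1 (median 18.2) in the Tnnt1 sums. These ranges overlap almost wholly, and within animals the Calb2 class was lower in 13 of 17. The log2 difference was -1.71 ± 0.49 (adjusted p = 0.0133 in edgeR's test, range 0.000522 to 0.808), and within batches 1, 2 and 3 it was -1.76, -2.09 and -1.53, none of them past the threshold alone. The call was also lost without batch 2 (adjusted p = 0.077) and without batch 3 (0.231). Ncan ran from 16.2 to 60.1 CPM (median 32.0) in the Calb2 sums and from 27.6 to 84.2 (median 55.8) in the Tnnt1 sums. It was lower in the Calb2 class in 14 of 17 animals, but its difference of -0.56 ± 0.20 missed the threshold (adjusted p = 0.0633 in edgeR's test, range 0.0154 to 0.927). The lowest of these was that of DESeq2, and leaving out auditory replicate 1 gave 0.0397.

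Col12a1 ran from 0 to 316 CPM (median 13.6) in the Calb2 sums and from 0 to 18.1 (median 1.34) in the Tnnt1 sums. The Calb2 class was higher in 12 of 17 animals, among them 5 of 5 auditory and 3 of 3 prefrontal animals, but 2 of 5 motor and 2 of 4 visual ones. The log2 difference was 3.31 ± 0.76 (adjusted p = 0.00174, range 1.63e-09 to 0.694), and within batches it was 2.28, 6.55 and 2.60, past the threshold in batch 2 (adjusted p = 0.0142). Without batch 2 it was 2.39 and missed the threshold (adjusted p = 0.0777). Spon1 ran from 25.2 to 507 CPM (median 199) in the Calb2 sums and from 16.2 to 307 (median 191) in the Tnnt1 sums, and was higher in the Calb2 class in 13 of 17 animals. Its difference was small, 0.51 ± 0.16 (adjusted p = 0.0253, range 0.00216 to 0.970), and turned to -0.13 within batch 1 (adjusted p = 0.970 in edgeR's test), with 0.91 and 0.68 within batches 2 and 3. The call was lost on leaving out any 1 of motor replicates 4 and 5, prefrontal replicates 3 and 4 and visual replicate 4, with adjusted p from 0.0592 to 0.0709. It was also lost without batch 2 (adjusted p = 0.338 in edgeR's test), without batch 3 (0.410), within batch 3 (0.0926) and among cells with a clear anchor (0.0938).

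Fbln1 was left out of that fit by its filter. In the Calb2 sums it ran from 0 to 300.4 CPM (median 1.27), and in the Tnnt1 sums from 0 to 7.49 (median 0). The high Calb2 sums were those of prefrontal neurons, 251 ± 58.0 CPM (n = 4), and auditory neurons, 23.9 ± 21.4 (n = 5), where the Tnnt1 sums had 2.497 ± 4.33 (n = 3) and 0.0771 ± 0.172 (n = 5). In 5 of 5 auditory and 3 of 3 prefrontal animals the Calb2 class was higher. In motor and visual neurons both classes had means under 0.5 CPM. With no filter on low counts the fitted difference was 5.03 ± 0.58 (adjusted p = 1.12e-15), a value that rests on sums near 0. Hapln1 had 0 UMIs in 611 Calb2 cells, which allows up to 0.602% of them to hold one by the same interval, and 15 UMIs in 756 Tnnt1 cells.

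**Figure D3:**
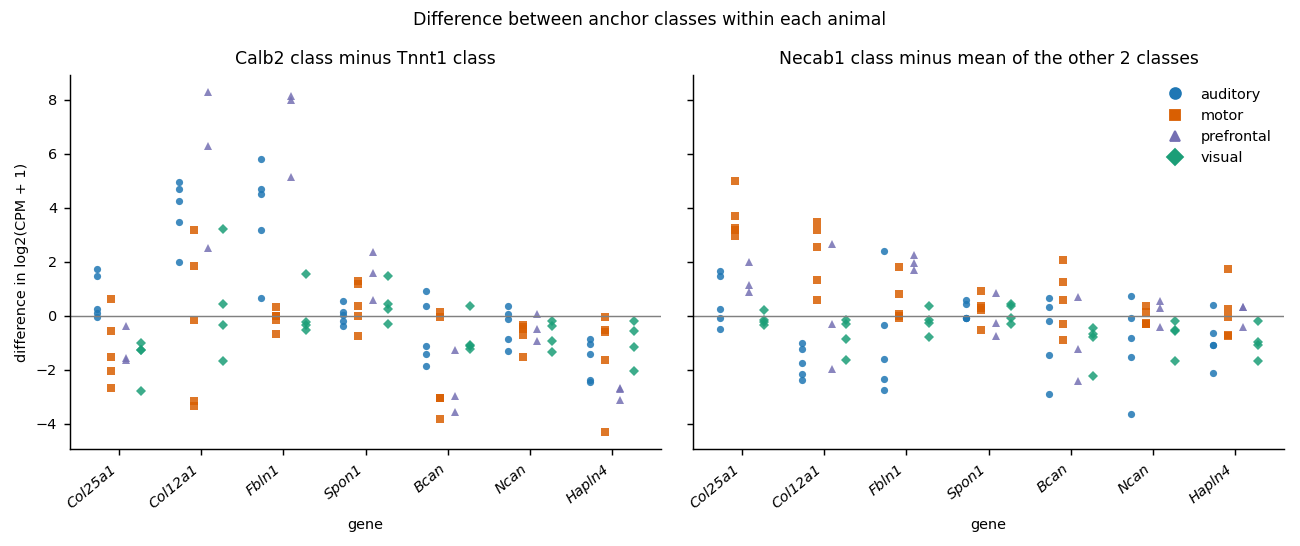
Difference between anchor classes within each of 17 animals, on a log2(CPM + 1) scale, for 7 genes: the Calb2 class minus the Tnnt1 class (left) and the Necab1 class minus the mean of the other 2 (right); colours and symbols give the system. Every Hapln4 point on the left lies below 0, the Col12a1 and Fbln1 points of auditory and prefrontal animals lie above 0, and the motor animals are the highest Col25a1 points on the right.

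Col25a1 was higher in the Necab1 class. Of 6 genes tested it alone differed between that class and the mean of the other 2, where 6.96% of all genes did (2.72% higher, 4.24% lower). Nothing is read from this count either. Col25a1 ran from 30.4 to 561 CPM (median 199) in the Necab1 sums, from 5.16 to 144 (median 62.1) in the Calb2 sums and from 16.6 to 398 (median 56.3) in the Tnnt1 sums. The log2 difference was 1.57 ± 0.30 (adjusted p = 0.000576, range 5.36e-27 to 0.400), and within batches 1, 2 and 3 it was 1.57, 2.07 and 1.06, past the threshold in batch 2 alone (adjusted p = 0.212, 0.00793 and 0.400). It was higher in 12 of 17 animals. In motor neurons the Necab1 class averaged 264 ± 52.3 CPM, against 16.1 ± 11.6 in the Calb2 and 34.9 ± 16.1 in the Tnnt1 class (n = 5 each). The motor Necab1 sums lay above all motor sums of the other 2 classes, which overlapped each other. In visual neurons the order was another: the Necab1 class had 61.2 ± 28.2 CPM, the Calb2 class 39.8 ± 19.4 and the Tnnt1 class 109 ± 17.2 (n = 4 each), and the Necab1 class was higher than the mean of the others in 1 of 4 animals. Col25a1 did not pass the threshold between the Calb2 and the Tnnt1 class (-0.51 ± 0.35, adjusted p = 0.413, range 0.0257 to 0.912). The difference of the Necab1 class was 3.74 log2 units larger in motor than in visual animals (exact permutation test, two-sided p = 0.00794, adjusted p = 0.133 over the 84 such differences between systems computed for 7 genes). None of the 84 passed after adjustment, and 19 had an unadjusted p under 0.05.

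Hapln4 averaged 84.5 ± 40.7 CPM in the Necab1 class, between the 72.4 ± 48.6 of the Calb2 and the 188 ± 43.6 of the Tnnt1 class; its difference from the mean of both was -0.49 ± 0.19 (adjusted p = 0.129, range 0.0176 to 0.990). In the Tnnt1 class its mean ran from 149.8 ± 26 CPM in visual (n = 4) to 212 ± 15.5 in prefrontal neurons (n = 3). The prefrontal Tnnt1 sums ran from 201 to 229 CPM, above the Necab1 sums (46.1 to 101) and the Calb2 sums (25.8 to 46.3) of that system. Auditory Tnnt1 sums held 179 ± 58.8 CPM of Hapln4 but only 3.17 ± 4.51 of Bcan (n = 5), whereas motor Tnnt1 sums held 205 ± 39.4 and 32.2 ± 11.4 (n = 5).

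**Figure D4:**
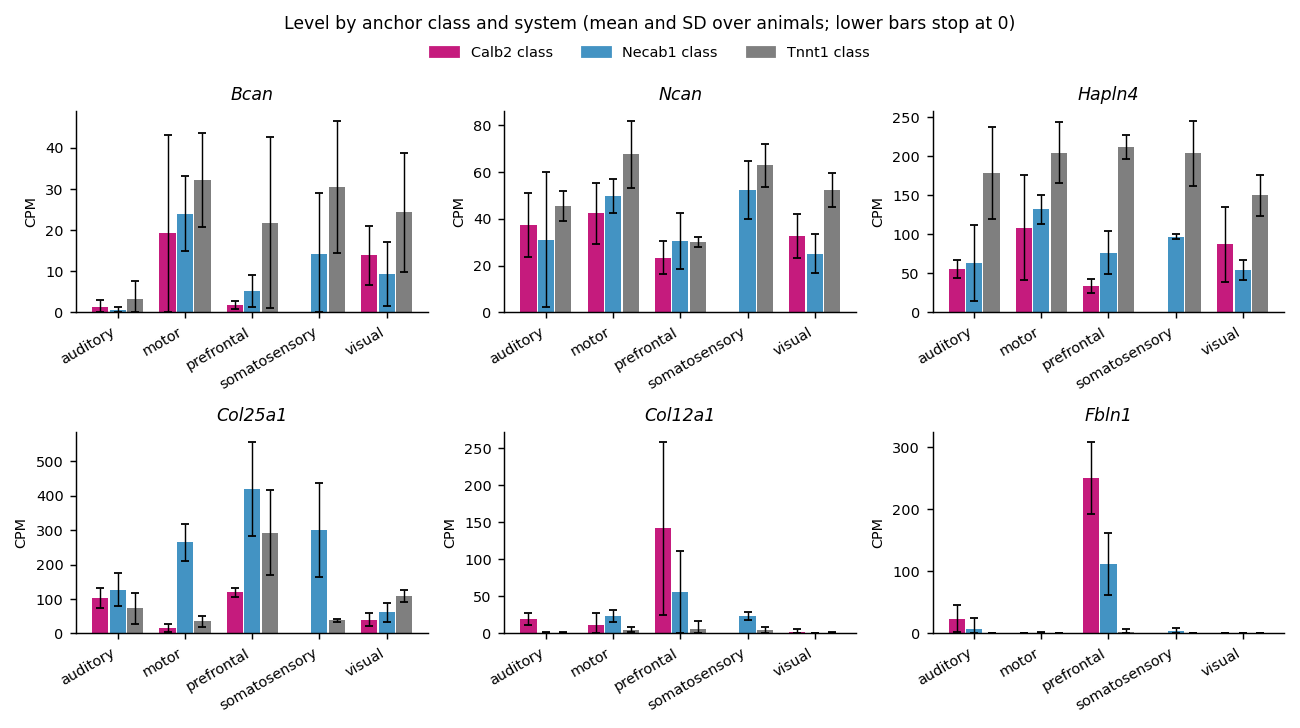
Mean level in CPM (bars from 0; error bars are the SD over animals, cut at 0 below) of 6 genes in the Calb2, Necab1 and Tnnt1 classes of each system; somatosensory neurons have no Calb2 sum. The Tnnt1 bar is the tallest for Hapln4 in all 5 systems, Bcan has a mean under 4 CPM in every auditory class, and Col12a1 and Fbln1 are tallest in the Calb2 class of prefrontal neurons.

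Other matrix genes were read from 9 lists of collagens, net proteins, chondroitin sulfate enzymes, proteases and receptors, 209 genes without the 8 above, of which 142 could be tested across systems and 88 between classes. Among the systems 36 of 142 (25.4%) differed, against 12.6% of all genes: 4 of 8 spondins and related genes, 6 of 17 chondroitin sulfate enzymes, 5 of 16 net proteins, 6 of 27 collagens, 6 of 22 proteases and inhibitors, 5 of 23 receptors, 2 of 10 genes of basement membranes and other matrix, 1 of 14 of collagen processing and 1 of 5 fibulins and hemicentins. In prefrontal neurons 14 rose and 10 fell, where 5.19% of all genes rose and 3.97% fell. In auditory neurons 13 rose and 6 fell (7.97% of all genes changed, 4.28% up and 3.69% down), and in motor neurons 11 rose and 2 fell (3.91%, 2.32% up and 1.59% down). In visual neurons 2 rose and 0 fell (0.145%, 0.0465% up and 0.0988% down), and in somatosensory neurons 0 changed (0.232%, 0.0349% up and 0.198% down).

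In prefrontal neurons, where Fbln1 and Col12a1 are high, Col18a1, a basement membrane collagen, had a log2 difference of 2.64 ± 0.65 (adjusted p = 0.0117, edgeR). Timp3, an inhibitor of matrix proteases bound to the matrix, had one of 1.65 ± 0.18 (adjusted p = 4.74e-06, edgeR). Of 27 collagens tested there, 3 rose and 0 fell, where 5.19% of all genes rose and 3.97% fell. Of 10 genes of basement membranes and other matrix, however, 0 rose and 3 fell. Thsd7b, a protein with thrombospondin repeats, rose in prefrontal (6.03 ± 0.76) and in auditory neurons (4.31 ± 0.74), and so did Sdc2, the cell surface proteoglycan syndecan-2 (2.23 ± 0.22 and 1.124 ± 0.22), which fell in motor neurons (-1.78 ± 0.27). In motor neurons, where Bcan is high, 3 enzymes of chondroitin sulfate synthesis rose: Xylt2, which starts the chains (0.65 ± 0.14), Csgalnact1, which commits them to chondroitin sulfate (1.21 ± 0.27), and the sulfotransferase Chst11 (1.06 ± 0.26). Xylt2 fell (-0.74 ± 0.16) and Dsel, related to the epimerase of these chains, rose (1.48 ± 0.28) in prefrontal neurons, and Csgalnact1 fell in auditory neurons (-1.28 ± 0.30). Of the 17 enzymes tested, 3 rose and 0 fell in motor, 1 rose and 1 fell in prefrontal, and 2 rose and 1 fell in auditory neurons. Sparcl1, a secreted protein of synapses, fell in auditory (-1.85 ± 0.20) and rose in visual neurons (1.31 ± 0.26).

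Between the classes, 17 of 88 list genes (19.3%) changed in the Calb2 minus Tnnt1 contrast, beside 12% of all genes tested, 5 higher and 12 lower, with a median log2 difference of -0.07 over the 88. Of 16 chondroitin sulfate enzymes 3 changed (18.75%, beside 12% of all genes), and the median log2 difference over the 16 was -0.0567. All 3 were lower: Csgalnact1 by -2.51 ± 0.60, Chst11 by -1.01 ± 0.31 and Xylt2 by -0.81 ± 0.17. Lower too were the proteases Adamts15 (-1.24 ± 0.34), which is known to cleave lecticans, and Adamts19 (-2.86 ± 0.64), and Ptprs, a receptor of chondroitin sulfate chains (-0.48 ± 0.09). Higher were Sdc2 (3.11 ± 0.52), Thsd7b (2.55 ± 0.78), Ptprf (1.58 ± 0.20) and Timp2 (0.91 ± 0.11). In the Necab1 contrast 5 of 88 (5.68%) changed, below the 6.96% of all genes, so the count says nothing particular of the lists; they were higher by edgeR's test: Ptprd, Ptprf, Timp2, Timp3 and Agrn, by 0.48 to 0.58. Aggrecan (Acan), the lectican best known from perineuronal nets, was at 0.1 CPM and Vcan at 1.1 CPM on average over the sums, and Tnr, tenascin-R, at 34.7.

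**Figure D5:**
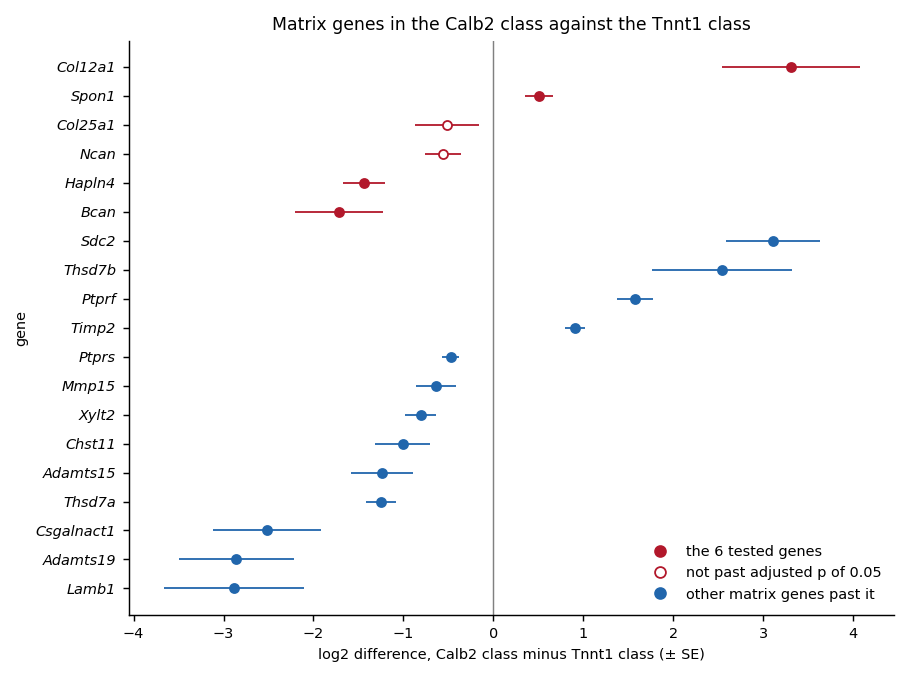
Log2 difference ± SE between the Calb2 class and the Tnnt1 class for the 6 genes tested (red; open where the adjusted p missed 0.05) and for the other matrix genes past that threshold with a mean of at least 10 CPM (blue). Bcan and Hapln4 lie left of 0 with Csgalnact1, Chst11 and Xylt2, and Col12a1 lies right of 0 with Sdc2 and Thsd7b.

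Across the 21 sums, the genes were compared pair by pair. The Pearson correlation of log2(CPM + 1) was 0.73 between Bcan and Hapln4, 0.75 between Ncan and Hapln4, 0.50 between Bcan and Ncan and 0.73 between Col12a1 and Fbln1, but -0.75 between Fbln1 and Hapln4 and -0.72 between Fbln1 and Spon1. Sums of a system share their labelled cells and often their batch, so these values describe the systems again and carry no p. Among 8848 genes with a mean of at least 10 CPM, the most alike to Hapln4 was Gjc1, a gap junction protein (r = 0.92), to Bcan Eps8l2 (0.90), to Ncan Zbtb18 (0.88), to Spon1 Syt1, a calcium sensor of transmitter release (0.95), to Fbln1 Atp6v1g2, a subunit of the proton pump of synaptic vesicles (0.94), to Col12a1 Fam163b (0.91) and to Col25a1 Cgref1 (0.76). Gjc1 averaged 71.2 CPM in somatosensory and 54.0 in motor neurons, and 29.2 in visual, 17.3 in auditory and 9.76 in prefrontal neurons.

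Lecticans are also made by astrocytes and by oligodendrocyte precursors, and collagens and fibulin-1 by fibroblasts and mural cells, so the markers of these cells were read beside the results. The 10 fibroblast and mural markers together came to 2.20 to 16.2 CPM in the prefrontal sums and 0.748 to 7.33 in all other sums. Acta2 (1.46 CPM), Col1a1 (1.33), Col3a1 (0.92) and Lum (0.66) were highest in prefrontal neurons. Pdgfrb and Vtn were highest in auditory, Col1a2 and Rgs5 in somatosensory and Dcn in visual neurons. Kcnj8 had 1 UMI in all cells, in motor neurons. Over all cells the 10 markers came to 7.86 CPM in Pfr_3 and 1.36 in Pfr_4, the clusters with the most Fbln1 and Col12a1. The part of fibroblasts and mural cells in these levels was not tested. Of the 12 astrocyte markers, Slc1a2 and Slc4a4 were found in 88.7% and 25.1% of all cells. Slc1a2 was at 439 CPM in motor, 358 in prefrontal, 264 in somatosensory, 209 in auditory and 193 in visual neurons. Slc4a4 was at 43.9 CPM in somatosensory, 30.6 in motor, 21.9 in visual, 17.9 in auditory and 4.14 in prefrontal neurons. The other 10 came to 1.58 CPM in motor, 2.56 in somatosensory and 1.92 in visual neurons, where Bcan is high. They came to 10.7 CPM in auditory and 8.49 in prefrontal neurons, where it is low. Of these, Gfap was at 0 in auditory and motor neurons. The 10 oligodendrocyte markers came to 71.6 CPM in prefrontal neurons, against 200.0 to 278 in the other systems. Of the 8 precursor markers, Lhfpl3 was found in 65.6% of cells, and the other 7 came to 7.53 CPM in motor, 2.19 in somatosensory and 15.1 in visual neurons, where Bcan is high, and to 5.90 in auditory and 0.343 in prefrontal neurons, where it is low. In the clusters with the most Bcan they came to 1.27 CPM in Mot_1 and 0.129 in Som_1. The part of cells with astrocyte or precursor markers in the Bcan levels was not tested, and Bcan levels without such cells are not given here. In the 1749 cells with 0 UMIs of these 17 markers, a choice made after the data were seen, Fbln1 averaged 10.7 CPM over auditory sums, against 18.2 in all cells, and Col12a1 8.82 against 11.9. In Aud_3 Fbln1 then had 60.5 CPM over all cells, against 100.2, and Col12a1 44.3 against 62.2. The part of marker-bearing cells in these differences was not tested.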

How the data were processed

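Per the labels' protocols, fluorescent thalamic neurons were sorted by hand, spike-in RNAs were added, and libraries were made from plate-level pools. Per the submitters' processing notes, cutadapt 1.16, Picard 1.12 and STAR 2.5.3 were used with build mm10; the annotation behind the counts is not given in the sources used here. The authors deposited UMI counts per gene and cell and a cell table with system, animal, clusters and a flag on 20 cells, which were kept. The genes and lists were chosen with earlier results of these data known. The text names all 8 genes, matrix list genes that passed the filter, first those with a mean of at least 10 CPM, and the gene most alike to each of the 8; the low levels of Acan and Vcan are named after their values were seen.

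Counts of 1972 cells, without 90 spike-in RNAs, were summed per animal and system (at least 10 cells) and per class (at least 5). Sums were fitted with edgeR 4.0.16 in R 4.3.3 (TMM, filterByExpr, quasi-likelihood test, Benjamini-Hochberg threshold 0.05), with the batch as a covariate between systems and with the animal and system as a block between classes, where classes come from the same animal. DESeq2 1.42.0 was an alternative. Fold changes of the 8 genes between systems are given without a test. Replicate numbers were given within each system and do not pair sums across systems. The 1 animal identifier found in both the auditory and the visual system gave separate sums, which the fit of systems treated as independent replicates. Shares of cells were read at the full depth of each cell, except where thinning to 20000 UMIs is named. Shares at full depth are not corrected for depth, whose median ran from 68018 UMIs per cell in visual to 106300 in somatosensory neurons. Intervals are exact 95% Clopper-Pearson ones, and a count of 0 allows up to 3 counts at the floor. Intervals cover counting error only. The fits were tested on simulated data.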

Additional observations from a re-analysis of the deposited data

Results flagged for a closer look

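Within systems of 4 or 5 sums, 7 of 32 sets of sums had 1 sum far from the others. Far means a gap to the nearest sum, over the range of the set, past 0.71 for 5 sums or 0.829 for 4. Such limits are not made for levels near the floor of detection, so the number of sets is not compared with chance. For Hapln1 the gap is the whole range because the other sums are 0, and the Fbln1 sums below rest on few UMIs. Col12a1 was at 19.92 CPM in auditory replicate 5, with the other auditory sums at 8.36 to 10.9. Spon1 was at 22.39 CPM in prefrontal replicate 2, with the others at 60.4 to 67.7. Bcan was at 6.584 CPM in auditory replicate 4, with the others at 0.229 to 1.94. Fbln1 was at 1.093 CPM in motor replicate 3 (others 0 to 0.287) and at 0.8332 CPM in visual replicate 3 (others 0.120 to 0.164). Hapln1 was at 1.536 CPM in auditory replicate 4, where 1 cell holds all its UMIs, and at 0.1968 CPM in prefrontal replicate 3, with 0 in the other sums of both systems.

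For Col12a1, the Necab1 class against the mean of the other classes moved in opposite directions in different systems. The mean log2 difference was -1.69 in auditory animals, lower in 5 of 5, and 2.22 in motor animals, higher in 5 of 5, so that the systems differed by -3.915 (exact permutation test, two-sided p = 0.00794, adjusted p = 0.133). Visual animals had -0.73, lower in 4 of 4, and motor minus visual came to 2.955 (exact permutation p = 0.016, adjusted p = 0.136). Neither difference passed adjustment over 84 comparisons.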

How the results depend on the processing

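Between the Calb2 and Tnnt1 classes 4 genes were called. The number called was 1 without batch 2, 0 within batch 1, 1 within batch 3 and 3 to 5 on leaving out 1 sum at a time. Genes outside the 4 can enter these numbers, as Ncan did without auditory replicate 1. For the Necab1 class against the others, 1 gene was called, with 2 when no filter on low counts was used, 0 within batch 1 and 0 within batch 3, and 1 to 2 on leaving out 1 sum; the second gene was Hapln4, called without motor replicate 5. Without the replicate block these counts were 4 and 1, as with it. Of the other matrix genes, 36 differed among systems, against 56 with no filter, 22 without batch 1, and 10, 12 and 9 within batches 1, 2 and 3, where fewer sums were fitted; leaving out 1 sum gave 29 to 38. Among class differences of single genes, most refits kept their direction and side of the threshold, a smaller number lost a call and 5 gained one. Another 23 turned their sign. Among these 23, only the Spon1 difference had been called to begin with, and the cause was not tested. In the Calb2 minus Tnnt1 contrast Spon1 was -0.13 ± 0.26 within batch 1 (edgeR's adjusted p = 0.970), and Col25a1 was 0.16 without batch 3 and 0.95 within batch 2. In the Necab1 contrast Ncan was 0.17 within batch 1 and Hapln4 0.026 within batch 2. Col12a1, at -0.014 ± 0.51 there, was 0.014 with DESeq2's size factors, 0.14 without cells with markers of another cell type and 0.14 with cells summed per sort date, 0.046 without batch 3, 0.30 within batch 1, 0.24 without the replicate block and 0.55 in cells with a clear anchor; leaving out 1 sum gave -0.25 to 0.10. Hapln1, with 21 UMIs, and Fbln1 outside prefrontal and auditory neurons are limited by depth.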
